A study of Mus musculus with 2 samples.

Results

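The collagen genes of the mouse were followed in the heart of the embryo at embryonic day 11.5. They were taken as every protein-coding gene in both gene tables whose symbol consists of Col, a type number, the letter a and a chain number, which gave 44 of the 43346 mouse genes measured. Total RNA was sequenced from whole hearts of B6NCrl embryos, healthy and with the sexes pooled, in 2 libraries of 1 group, called replicate 1 and replicate 2 here as in the labels. No treatment or mutation was applied and there is no control group, so the values describe levels and the spread between the libraries. Replicate 1 came from the pooled hearts of 109 embryos, while no embryo number is given for replicate 2. Both biosamples carry the same donor identifier, and an SD over the libraries measures the spread between these 2 libraries alone. Because whole hearts were lysed, a smaller number of cells that make a collagen and less RNA in each of those cells cannot be told apart.

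Collagens are proteins of the extracellular matrix in which 3 polypeptide chains, called alpha chains, wind around each other into a triple helix. The type number names the protein and the chain number the subunit, so that Col1a1 and Col1a2 encode the chains of type I collagen. Fibrillar collagens build the tensile fibres of connective tissue, type IV collagens form the sheet-like network of basement membranes, and the remaining classes decorate fibres, anchor cells or span membranes. In the embryonic heart, the endocardial cushions that become valves and septa are filled with matrix made by mesenchymal cells, and basement membranes underlie the endocardium and the muscle.

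Expected counts, the estimated numbers of reads per gene, summed to 34447169 over mouse genes in replicate 1 and 25261719 in replicate 2. All 10 cardiomyocyte markers, all 9 endocardial and endothelial markers, all 7 epicardial markers and 11 of 12 mesenchymal markers reached 1 TPM in both libraries, and the exception, Thy1, had 0.36 and 0.58 TPM. TPM is an abundance corrected for length and scaled to a fixed sum in each library, so levels of different genes can be compared on it. Markers of liver and yolk sac summed to 281 TPM in replicate 1 and 77.4 TPM in replicate 2 over 12 genes, 11 of which were higher in replicate 1.

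A collagen gene was called detected where it had at least 1 TPM in both libraries. By this rule 28 of the 44 collagen genes were detected (63.6%), beside 56.4% of the 21474 protein-coding genes. The median over the 44 was 3.72 TPM in replicate 1 and 3.29 TPM in replicate 2, against medians of 2.94 and 2.91 TPM over all protein-coding genes. Together the collagen genes summed to 876 TPM in replicate 1 and 1098 TPM in replicate 2, which is 0.131% ± 0.0204 of the protein-coding TPM (SD, n = 2). In counts they took 118804 reads in replicate 1, or 0.365% of the protein-coding reads with a 95% Wilson interval of 0.363 to 0.367%. The corresponding 107942 reads in replicate 2 made up 0.446%, with an interval of 0.443 to 0.449%. These intervals do not overlap, and they cover counting error alone.

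Collagen expression was concentrated in a few genes, as the plot of levels by structural class shows. Col3a1 alone held 27.9% ± 0.534 of the summed collagen TPM, the leading 5 genes held 68.7% ± 1.61, and the leading 12 held 89.5% ± 0.675 (SD, n = 2 each). These SDs cover the libraries and not the choice of measure. In counts, Col3a1 had 24281 of the 118804 collagen reads in replicate 1 and 23876 of 107942 in replicate 2, a smaller share. At the other end, 15 members had fewer than 100 counts in each library, and 5 of these were listed at 0 in 1 library. With 2 libraries an exact sign-flip test of a level or ratio cannot give a p below 0.5, so levels are given with their spread and without a p.

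**Figure D1:**
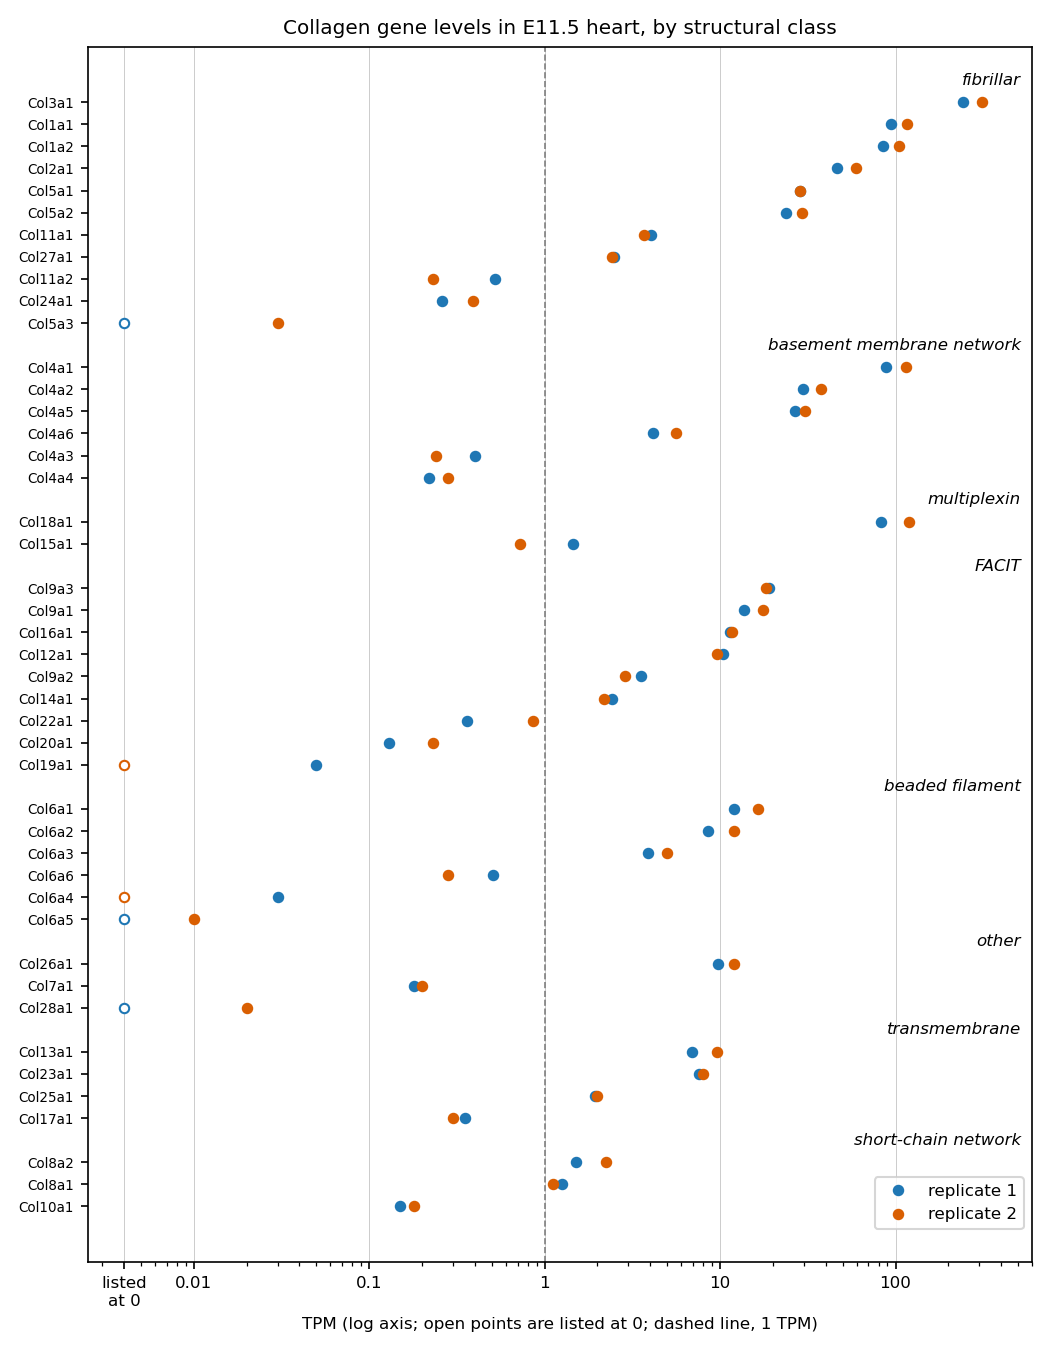
Level of each of the 44 collagen genes in TPM on a log axis, grouped by structural class, with 1 point for each library and a dashed line at the detection threshold of 1 TPM. Open points are listed at 0; the points run to 241 and 311 TPM for Col3a1, and in most classes a few members stand far to the right of the others.

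Col3a1 encodes the chain of type III collagen, which is abundant in elastic and fetal connective tissue, and its gene lies at chr1:45311538-45349706 on the plus strand (mm10). It had 241 TPM in replicate 1 and 311 TPM in replicate 2, and ranked 413 among the 21474 protein-coding genes by mean TPM. Next came the genes of type I collagen, the main fibre-forming collagen of most connective tissues. Col1a1 had 94.8 and 116 TPM, while Col1a2 had 84.5 and 105 TPM in replicates 1 and 2. The chains of type I collagen were thus close, with a Col1a1 to Col1a2 ratio of 1.11-fold (log2 0.17 in replicate 1 and 0.14 in replicate 2). A complete type I molecule holds more alpha 1 than alpha 2 chains, and the RNA ratio was nearer to equality. Col1a1, Col4a1, Col18a1 and Col1a2 followed Col3a1 in this order by mean, and the ranges of neighbours among them overlapped. Within each library Col1a1 was above Col4a1 and Col4a1 above Col1a2, while Col18a1 was the lowest of the 4 in replicate 1 and the highest of them in replicate 2.

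Type V collagen is incorporated into type I and III fibres and is known to regulate their diameter. Col5a1 had 28.6 TPM in both libraries, and Col5a2 had 23.8 TPM in replicate 1 and 29.1 TPM in replicate 2. Which of the chains was higher differed between the libraries, with log2 ratios of 0.27 and -0.03. Col5a3, the third type V chain, was listed at 0 in replicate 1 and at 0.03 TPM in replicate 2. Col5a2 and Col3a1 are neighbours on chromosome 1, tail to tail with 24614 bases between them, and Col3a1 was 10.4-fold higher than Col5a2 (log2 of Col5a2 over Col3a1 -3.38 ± 0.05, SD, n = 2). Of the other fibrillar genes, Col27a1, known from cartilage, had 2.50 and 2.43 TPM, whereas Col24a1, known from developing bone, had 0.26 and 0.39 TPM.

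By class, the 11 fibrillar genes held 59.96% ± 0.289 of the collagen TPM, with 8 of them detected. The 6 type IV genes of the basement membrane network held 17.2% ± 0.0992, and the 2 multiplexins, the basement membrane collagens XV and XVIII, held 10.2% ± 0.966 (SD, n = 2 each). The 9 FACIT genes, collagens with interrupted helices that sit on the surface of fibres, held 6.34% ± 0.829. Each of the other 4 classes held less than any of these. The FACIT share was lower in replicate 2 (6.93% in replicate 1, 5.76% in replicate 2), and the multiplexin share was higher there (9.55% in replicate 1, 10.9% in replicate 2). All these shares have the summed collagen TPM as their base, so a higher share of 1 class lowers the others. Their SDs do not cover the choice of measure. In counts, the type IV share averaged 22.1% and the FACIT share 3.98%, with FACIT at 4.23% in replicate 1 and 3.73% in replicate 2. On coding transcripts of at least 50% of the longest one's length, type IV averaged 20.2% and FACIT 5.09%.

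**Figure D2:**
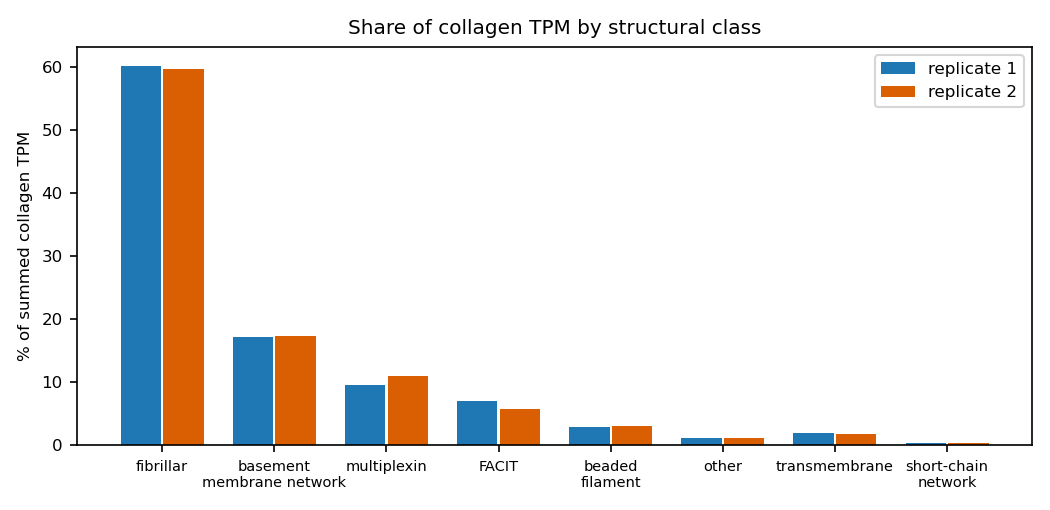
Percent of the summed collagen TPM in each structural class, with 1 bar for each library and the axis starting at 0. The fibrillar bars reach 60.2% in replicate 1 and 59.8% in replicate 2, and the order of the leading 4 classes is the same in both libraries.

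Type IV collagen is the network-forming collagen of basement membranes, and its genes lie in head-to-head pairs whose members are transcribed in opposite directions. Col4a1 and Col4a2 encode the chains of the widespread form. Their annotated starts on chromosome 8 are 21 bases apart, and the genes overlap by 22 bases. The windows of 250 bases before and 50 bases after each RefSeq start (GRCm38.p6) are shown because 2 genes with unequal levels start in the same short stretch. They are chr8:11312777-11313076 on the minus strand for Col4a1 and chr8:11312555-11312854 on the plus strand for Col4a2, they share 78 bases, and capitals mark GC boxes (GGGCGG, or CCGCCC on the other strand) and CCAAT boxes (CCAAT, or ATTGG on the other strand).
Col4a1: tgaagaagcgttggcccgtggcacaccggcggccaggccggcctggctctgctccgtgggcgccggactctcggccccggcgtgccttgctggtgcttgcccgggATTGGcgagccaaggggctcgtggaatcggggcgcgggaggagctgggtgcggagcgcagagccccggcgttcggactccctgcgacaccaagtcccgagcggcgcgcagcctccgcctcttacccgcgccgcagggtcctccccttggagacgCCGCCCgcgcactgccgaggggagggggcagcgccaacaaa
Col4a2: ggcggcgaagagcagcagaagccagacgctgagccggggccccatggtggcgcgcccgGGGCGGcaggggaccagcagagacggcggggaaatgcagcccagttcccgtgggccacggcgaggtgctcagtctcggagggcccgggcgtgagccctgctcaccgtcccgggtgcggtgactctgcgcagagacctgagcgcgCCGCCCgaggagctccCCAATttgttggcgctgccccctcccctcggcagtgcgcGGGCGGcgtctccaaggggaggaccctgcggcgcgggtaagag
Neither window holds TATAAA on either strand. The Col4a1 window has 1 GC box and 1 CCAAT box, and the Col4a2 window has 3 GC boxes and 1 CCAAT box. The Col4a1 GC box and the last Col4a2 GC box are the same site in the 78 shared bases, read on opposite strands. GC boxes occurred in 35.6%, CCAAT boxes in 37.4% and TATAAA in 13.6% of the 32817 mouse windows of this length. Among 38 windows of 35 matched collagen genes, 23 held a GC box (60.5%), 13 a CCAAT box (34.2%) and 5 TATAAA (13.2%). These matches are descriptions of letters and not of binding. Within each window shown, no motif overlapped another.

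Despite the shared start region, Col4a1 was higher than Col4a2 in both libraries. Col4a1 had 88.6 and 115 TPM, and Col4a2 had 29.8 and 37.7 TPM in replicates 1 and 2. The ratio was 3.02-fold (log2 1.57 in replicate 1 and 1.62 in replicate 2), and it differed less between the libraries than either level did. Almost all of each gene's TPM lay in its full-length coding transcript, at 100% for Col4a1 and at least 99.6% for Col4a2 in both libraries.

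Col4a5 and Col4a6 form the head-to-head pair on the X chromosome, with starts 1309 bases apart. Col4a5, whose chain is mutated in Alport syndrome in humans, had 26.7 and 30.3 TPM, and Col4a6 had 4.14 and 5.57 TPM. Col4a5 was thus 5.93-fold higher on gene TPM (log2 2.57 ± 0.17, SD, n = 2). In counts, which have no length correction, the log2 ratio averaged 2.11. Of the Col4a5 TPM, 56.5% in replicate 1 and 54.5% in replicate 2 was assigned to Col4a5-204, from 1470 and 1136 counts. It is a coding transcript of 21 exons that lacks the 5′ part of the gene, and it led in TPM but not in counts. The full transcript of 53 exons, Col4a5-202, held 42.5% and 45.5%, from 2085 and 1791 counts. Its level was 11.35 and 13.81 TPM, beside 4.06 and 5.57 TPM for the full Col4a6 transcript, Col4a6-201. Because Col4a5-204 has 53.7% of the longest coding transcript's length, the measure on long coding transcripts keeps it. Col4a3 and Col4a4, which join Col4a5 in the mature glomerular basement membrane, were both under the threshold. Col4a3 had 0.40 and 0.24 TPM, and Col4a4 had 0.22 and 0.28 TPM. Their starts on chromosome 1 are 72 bases apart, and which of them was higher differed between the libraries. Exons of Col4a3 share 563 bases with a transcript on the opposite strand, and the strand setting of the counting is not given.

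Col18a1 encodes the chain of type XVIII collagen, a heparan sulfate proteoglycan of basement membranes whose C-terminal fragment is endostatin. It had 82.2 TPM in replicate 1 and 119 TPM in replicate 2, and was the fourth highest collagen gene by mean. Col15a1, the other multiplexin, had 1.45 and 0.72 TPM and was not detected by the rule. Col18a1 was 96.8-fold higher than Col15a1, with log2 ratios of 5.82 in replicate 1 and 7.37 in replicate 2. Col15a1 rested on 96 counts in replicate 1 and 40 in replicate 2, and the mean log2 ratio was 5.64 on the posterior mean TPM that the authors also deposited and 8.19 on long coding transcripts.

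The Col18a1 gene on chromosome 10 is known to be read from alternative starts, which give shorter and longer forms of the protein. Windows at both RefSeq starts (GRCm38.p6, minus strand) are shown because nearly all of the signal belonged to 1 of them. The upstream window is chr10:77166481-77166780 and the internal one chr10:77113656-77113955, with capitals as above.
Col18a1 upstream start: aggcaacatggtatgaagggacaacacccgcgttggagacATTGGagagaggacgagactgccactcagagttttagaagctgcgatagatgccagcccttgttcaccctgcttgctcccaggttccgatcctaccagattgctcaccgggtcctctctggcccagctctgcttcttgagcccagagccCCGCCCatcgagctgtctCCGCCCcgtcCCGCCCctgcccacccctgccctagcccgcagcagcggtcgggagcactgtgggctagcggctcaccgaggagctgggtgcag
Col18a1 internal start: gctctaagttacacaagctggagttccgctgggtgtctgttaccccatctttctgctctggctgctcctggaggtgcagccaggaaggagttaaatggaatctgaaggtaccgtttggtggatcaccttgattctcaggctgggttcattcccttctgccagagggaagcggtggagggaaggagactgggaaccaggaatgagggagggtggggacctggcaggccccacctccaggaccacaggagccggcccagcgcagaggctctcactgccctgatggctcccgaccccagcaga
The upstream window holds 3 GC boxes and 1 CCAAT box, and the internal window holds none of these and no TATAAA. Transcript Col18a1-202 from the upstream start held 99.1% of the gene's TPM in replicate 1 and 99.4% in replicate 2. The 2 coding transcripts from the internal start held 0.475% and 0.462%, from 59.95 and 62.6 counts. In TPM this was 81.4 and 118 for the upstream transcript, and 0.39 and 0.55 for those of the internal start.

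Genes best known from cartilage were also present. Col2a1 encodes the chain of type II collagen, the main fibrillar collagen of cartilage, and had 46.6 TPM in replicate 1 and 59.6 TPM in replicate 2. Col9a1, Col9a2 and Col9a3 encode the chains of type IX collagen, a FACIT carried on type II fibres. Col9a3 had 18.9 and 18.2 TPM, Col9a1 had 13.6 and 17.6 TPM, and Col9a2 had 3.54 and 2.87 TPM. Although the chains of type IX assemble together, Col9a3 was 5.82-fold and Col9a1 4.85-fold higher than Col9a2 (log2 2.54 ± 0.18 and 2.28 ± 0.47, SD, n = 2). Exons of Col9a3 share 234 bases with Tcfl5 on the opposite strand, which had 3.05 and 10.1 counts.

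Type XI collagen forms the core of cartilage fibres. Col11a1 had 4.05 and 3.70 TPM, whereas Col11a2 had 0.52 and 0.23 TPM, from 28 and 27 counts. Col11a1 was 11.2-fold higher than Col11a2, with log2 ratios of 2.96 in replicate 1 and 4.01 in replicate 2, and a mean log2 of 2.25 on the deposited posterior mean TPM. Col2a1 was 13.6-fold higher than Col11a1 (log2 3.77 ± 0.34, SD, n = 2). Col10a1, the marker of hypertrophic cartilage, stayed at 0.15 and 0.18 TPM.

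Most markers of cartilage stayed under the threshold. Of 9 cartilage markers 1 was detected, Hapln1, the link protein of the hyaluronan matrix, at 52.3 TPM in replicate 1 and 73.4 TPM in replicate 2. The whole list summed to 54.2 and 77.6 TPM. Acan, the core protein of aggrecan, had 0.29 and 0.21 TPM, Matn1 had 0.02 and 0.29 TPM, and Snorc was listed at 0 in both libraries. Sox9, a transcription factor of cartilage and of cushion mesenchyme that is known to activate Col2a1, had 31.3 and 32.8 TPM. Which cells of the heart carried Col2a1 was not measured.

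Col2a1 has an alternative second exon, and the forms with and without it are known as IIA and IIB. The exon encodes a cysteine-rich domain of the amino propeptide, and the form that keeps it is known from tissues before and outside cartilage. In the annotation it lies at chr15:98000403-98000606 on the minus strand (GRCm38) and is 204 bases long, which is 68 codons, so skipping it keeps the reading frame. Its sequence is shown because the exon separates the main Col2a1 transcripts, in capitals with 15 bases of the neighbouring exons on each side in lower case.
Col2a1 exon 2: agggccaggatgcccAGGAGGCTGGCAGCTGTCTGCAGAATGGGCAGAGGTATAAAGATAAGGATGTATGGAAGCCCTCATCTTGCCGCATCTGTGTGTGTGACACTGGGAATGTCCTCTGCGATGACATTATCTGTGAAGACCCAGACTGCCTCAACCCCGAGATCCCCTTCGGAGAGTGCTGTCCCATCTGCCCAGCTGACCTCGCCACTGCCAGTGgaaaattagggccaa
Transcript Col2a1-201, which has the exon, held 26.1 TPM in replicate 1 and 47.3 TPM in replicate 2. Col2a1-202, which skips it, held 15.5 TPM in replicate 1 and 10.5 TPM in replicate 2. In percent of the gene's TPM, transcripts with the exon made up 56.1% and 79.4%, and the transcript without it 33.4% and 17.7%. Another 9.75% and 2.47% lay in Col2a1-205 and Col2a1-209, which hold exon 2 sequence within a longer or shorter exon. Both libraries thus had more of the form with the exon than without it. The size of the share differed between them, and the intervals the authors deposited for Col2a1-201 did not overlap (22.2 to 28.4 TPM in replicate 1, 41.3 to 48.5 TPM in replicate 2). For Col2a1-202 the deposited intervals did overlap (12.4 to 18.7 TPM and 7.52 to 14.8 TPM). The level of these intervals is not given in the sources used here, and the shares come from the authors' division of reads over transcripts that share nearly all their sequence.

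Type VI collagen forms beaded filaments that link cells to the surrounding matrix, and its main chains come from Col6a1, Col6a2 and Col6a3. Col6a1 had 12.02 and 16.4 TPM, and Col6a2, a neighbour on chromosome 10, had 8.50 and 12.1 TPM. Col6a3 had 3.90 and 4.99 TPM. Col6a1 was 1.39-fold higher than Col6a2 (log2 0.50 in replicate 1 and 0.44 in replicate 2) and 3.18-fold higher than Col6a3. The alternative chains encoded by Col6a4, Col6a5 and Col6a6 did not reach the threshold. Col6a6 had 0.51 and 0.28 TPM. Col6a4 had 0.03 TPM in replicate 1 and was listed at 0 in replicate 2, while Col6a5 was listed at 0 in replicate 1 and at 0.01 TPM in replicate 2.

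Among the remaining FACITs, Col12a1 and Col14a1 encode collagens that bind the surface of type I fibres in tendon and other dense tissue. Col12a1 had 10.3 and 9.61 TPM, and Col14a1 had 2.43 and 2.17 TPM. Col12a1 was 4.34-fold higher on gene TPM, but only log2 0.37 higher when coding transcripts of at least 50% of the longest one's length were summed. Col16a1 had 11.3 and 11.7 TPM. Col22a1, known from the junction of muscle and tendon, had 0.36 and 0.86 TPM, and Col20a1 had 0.13 and 0.23 TPM. Col19a1, a neighbour of Col9a1 with 9205 bases between them, had 7 counts in replicate 1 and was listed at 0 in replicate 2.

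The transmembrane collagens are made by cells that keep them at their surface. Col13a1, known for its part at the neuromuscular junction, had 6.96 TPM in replicate 1 and 9.54 TPM in replicate 2. Col23a1 had 7.58 and 7.95 TPM, and Col25a1, which acts in motor innervation of muscle, had 1.94 and 2.00 TPM. Col17a1, a component of hemidesmosomes in skin, was the only one of this class under the threshold, at 0.35 and 0.30 TPM. The short-chain collagens of type VIII are made by vascular and endothelial cells. Col8a2 had 1.51 and 2.23 TPM and Col8a1 had 1.26 and 1.12 TPM, with Col8a2 higher in both libraries (log2 of Col8a1 over Col8a2 -0.26 in replicate 1 and -0.99 in replicate 2). Outside the named classes, Col26a1, first known from testis and ovary, had 9.67 and 11.99 TPM. Col7a1, which forms the anchoring fibrils of skin, had 0.18 and 0.20 TPM, and Col28a1 was listed at 0 in replicate 1 and at 0.02 TPM in replicate 2.

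The detected genes nearest to the threshold were Col8a1, Col8a2 and Col25a1, and the undetected ones nearest to it were Col15a1, at 1.45 and 0.72 TPM, and Col22a1. Col15a1 passed in replicate 1 alone.

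Over the 16 pairs of chains compared, the same gene was the higher one in both libraries in 14. The exceptions were Col5a1 with Col5a2 and Col4a3 with Col4a4. On long coding transcripts the mean log2 ratio moved by more than the SD between the libraries in 8 of the 16 pairs, as the plot of chain ratios shows. Col3a1 to Col1a1 was 2.61-fold on gene TPM (log2 1.38 ± 0.05), and log2 0.72 on long coding transcripts. Col5a2 to Col3a1 was log2 -2.76 on long coding transcripts. Col6a3 to Col6a1 was log2 -1.67 on gene TPM and log2 -3.05 on long coding transcripts. Col2a1 to Col11a1 was log2 3.77 on gene TPM and larger, at log2 4.41, on long coding transcripts. Each pair that had the same gene higher in both libraries kept that gene on long coding transcripts. This measure was added after the gene values had been seen.

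**Figure D3:**
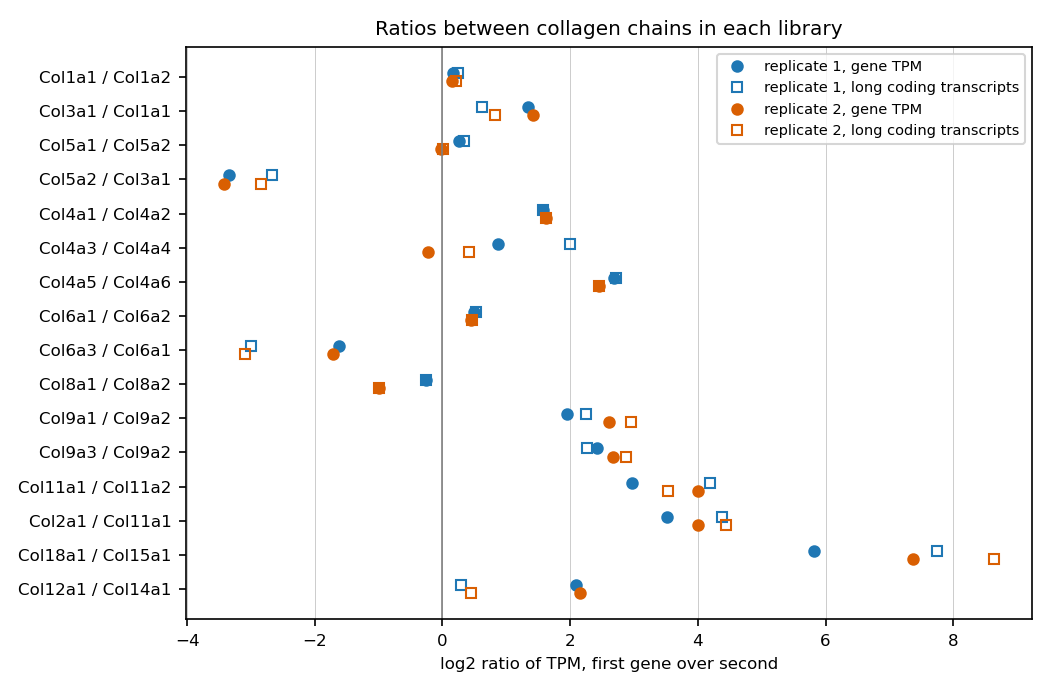
Log2 ratio of TPM for 16 pairs of collagen genes, first gene over second, in each library. Filled circles use gene TPM and open squares use long coding transcripts; Col4a1 over Col4a2 stays near log2 1.59 on both, while Col12a1 over Col14a1 is at a mean of 2.12 on gene TPM and 0.37 on long coding transcripts.

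These measures differ by the short or noncoding transcripts, to which the authors' model assigned much of some genes' TPM. For Col3a1, the coding transcript Col3a1-205 has 737 bases and 6 exons, yet held 38.9% of the TPM in replicate 1 and 33.2% in replicate 2. It did so from 1708 and 1324 counts, because TPM divides by length. The transcript of 51 exons, Col3a1-201, held 144 and 204 TPM, from 22460 and 22489 counts. Long coding transcripts of Col3a1 averaged 174 ± 42.6 TPM, still the highest among the collagen genes.

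For 4 detected genes the transcript with the largest share was not annotated as protein-coding in at least 1 library. Col6a3-206, a retained-intron transcript of 646 bases, held 53.5% and 51.7% of the Col6a3 TPM, from 32.6 and 28.5 counts. Col16a1-207, a processed transcript without a coding sequence, held 43.4% and 34.6% of the Col16a1 TPM. The leading transcript of Col12a1 changed with the library: the retained-intron transcript Col12a1-206 led with 34.6% in replicate 1 and held 9.97% in replicate 2, where Col12a1-204 led with 30.8%. For Col27a1, the full coding transcript Col27a1-201 led with 37.4% in replicate 1 and the processed transcript Col27a1-205 with 52.4% in replicate 2. The other 26 detected genes had the same leading transcript in both libraries. Long coding transcripts held at least 90% of the TPM in both libraries in 15 of the 28 genes, and under 60% in a library in 8.

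**Figure D4:**
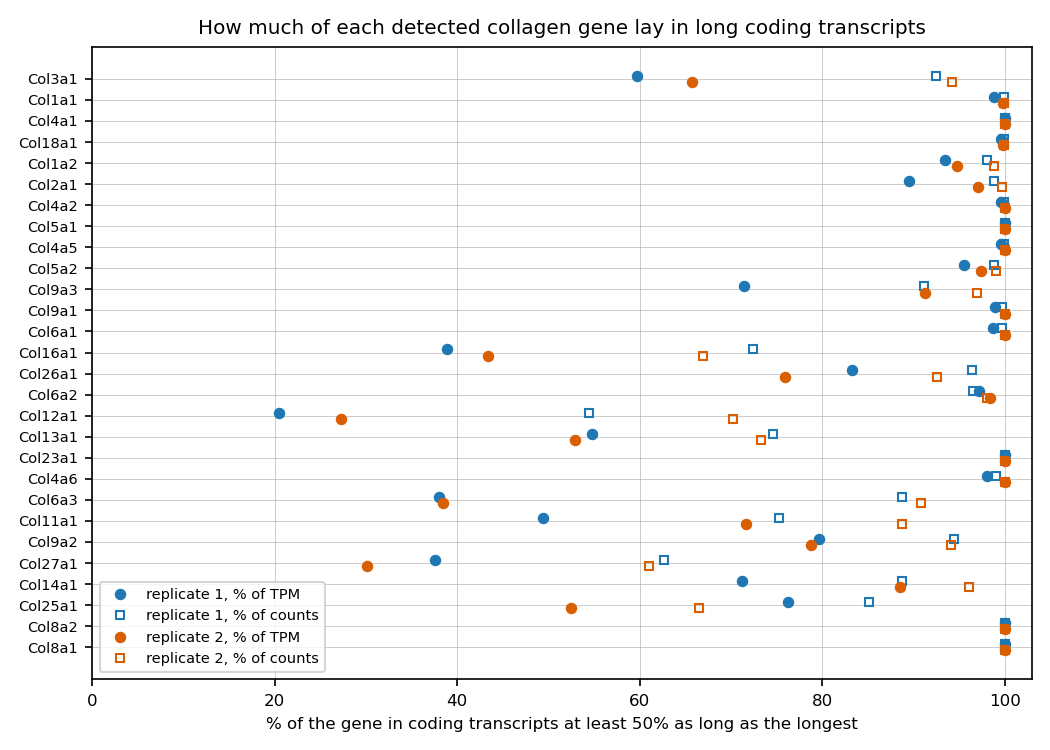
Percent of each detected collagen gene that was assigned to coding transcripts of at least 50% of the longest one's length, by TPM (filled circles) and by expected counts (open squares), in each library. Col4a1 and Col5a1 are at 100%, while Col6a3 is at 38.05% and 38.4% by TPM and at 88.8% and 90.9% by counts.

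The libraries were then compared gene by gene with an exact two-sided binomial test of the counts, adjusted by Benjamini-Hochberg over 16621 genes. This compares 2 libraries and covers counting error alone. Calls required both an adjusted p under 0.05 and at least a 2-fold difference. Of the genes tested, 3.32% were called with the higher level in replicate 1 and 1.37% with the higher level in replicate 2. Of the 44 collagen genes, 39 had the summed count of 20 needed for the test and 2 were called. Col17a1 had 40 counts in replicate 1 and 12 in replicate 2, a 2.36-fold difference with an adjusted p of 0.0150 in the exact binomial test. Col24a1 had 19 counts in replicate 1 and 32 in replicate 2, 2.28-fold higher in replicate 2 with an adjusted p of 0.0132 in the same exact test. Both were under 1 TPM, so no detected collagen gene differed 2-fold between the libraries. The TPM of Col17a1 differed less than its counts, and the gene length listed for it, which follows the transcripts in use, was 4136 bases in replicate 1 and 2058 bases in replicate 2.

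Smaller differences were common. At an adjusted p under 0.05 with no limit on the fold, 26 of the 39 tested collagen genes passed. Of these, 6 were higher in replicate 1 and 20 in replicate 2, beside 18.4% and 21.2% of all genes tested. Passing at any fold depends on the number of counts, and Col3a1, with 24281 and 23876 counts, passed at a 1.35-fold difference. The part of counts in these numbers was not tested. In TPM, 21 of the 28 detected genes were higher in replicate 2 (75%), beside 59.9% of the detected protein-coding genes. The median log2 ratio of replicate 1 over replicate 2 was -0.30 for the detected collagen genes and -0.05 for the detected protein-coding genes. Col8a2, Col18a1 and Col6a2 lay furthest towards replicate 2, with log2 ratios of -0.56, -0.54 and -0.50, and Col9a2 lay furthest towards replicate 1 with 0.30. The detected type I, III and IV genes were all higher in replicate 2; Col3a1 had a log2 ratio of -0.37, Col1a1 -0.29 and Col4a1 -0.38.

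**Figure D5:**
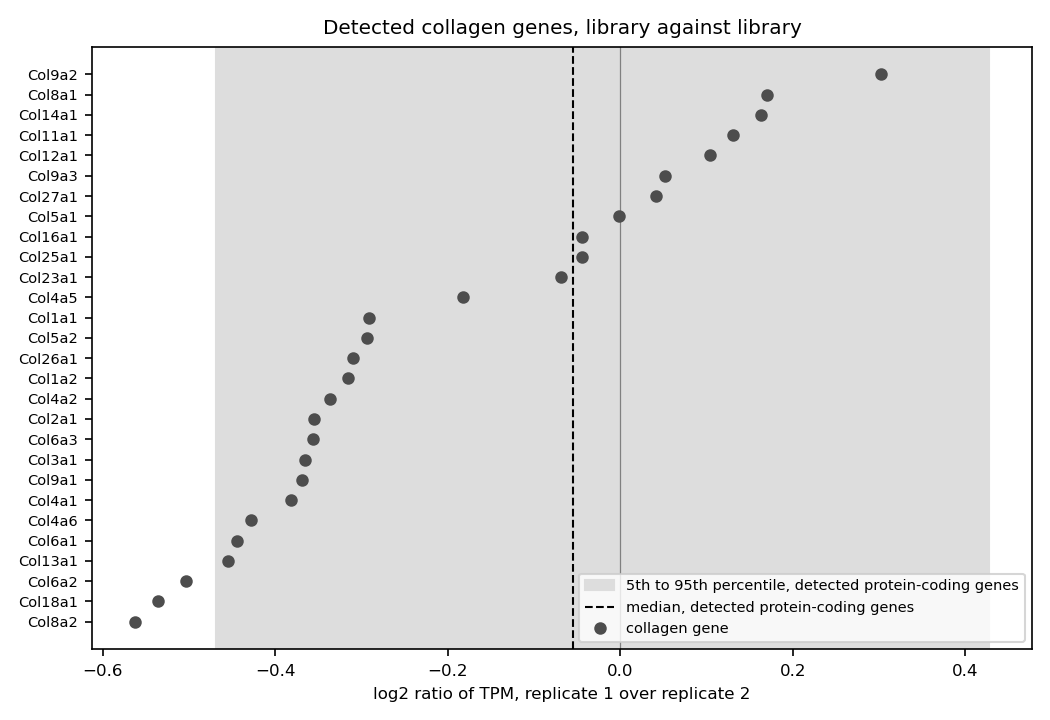
Log2 ratio of TPM, replicate 1 over replicate 2, for the 28 detected collagen genes, with the dashed line at the median of the detected protein-coding genes (-0.05) and a grey band from their 5th to 95th percentile (-0.47 to 0.43). Most points lie left of the dashed line, and Col8a2, Col18a1 and Col6a2 lie left of the band.

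Several properties were set beside this difference, and their part in it was not tested. Detected collagen genes have long transcripts, with a median longest coding transcript of 5627 bases against 3151 bases for detected protein-coding genes, and a median GC content of 56.4% against 50.1%. Among the 4506 detected protein-coding genes within the length and GC range of the collagen genes, 64.6% were higher in replicate 2 and the median log2 ratio was -0.09. Within the length range alone these values were 63.6% and -0.085. Within the GC range alone they were 60.1% and -0.055, near the 59.9% and -0.054 of all detected protein-coding genes. The share of TPM in coding transcripts was lower in replicate 1 in 17 of the 23 detected collagen genes that have a noncoding transcript, beside 58.3% of 7252 detected genes. The mesenchymal markers summed to 519 TPM in replicate 1 and 556 TPM in replicate 2, with 8 of 12 higher in replicate 2. The endocardial and endothelial markers summed to 420 and 489 TPM, with 8 of 9 higher in replicate 2. Markers of foregut and lung epithelium summed to 68.6 and 58.2 TPM, with 1 of 8 higher in replicate 2 and Nkx2-1, Foxa1 and Foxa2 called as higher in replicate 1. The liver and yolk sac markers, given above, were higher in replicate 1. In the other lists, 8 of 10 cardiomyocyte, 4 of 5 smooth muscle, 4 of 7 epicardial and 2 of 7 macrophage markers were higher in replicate 2. So were 7 of 9 cartilage markers, 4 of 6 markers of neural crest and glia, and 4 of 6 of skin and limb.

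Most genes whose products act on collagen were detected, beside 56.4% of all protein-coding genes by the same rule. The list of modification in the cell, which covers hydroxylation, folding and export of the chains, had all 22 members detected, with a median of 32.9 TPM in replicate 1 and 38.5 TPM in replicate 2. P4hb, a subunit of the prolyl hydroxylase, had 378 and 424 TPM. Serpinh1, the collagen chaperone HSP47, had 303 and 399 TPM, and Ppib, a prolyl isomerase, had 314 and 327 TPM. The lowest was the collagen galactosyltransferase Colgalt2, with 2.56 and 3.36 TPM.

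Of 14 genes for propeptide removal and cross-linking outside the cell, 10 were detected. Sparc, a matrix protein that binds collagen, had 843 and 909 TPM. Pcolce, the enhancer of the C-propeptide proteinase, had 87.0 and 97.2 TPM, and the lysyl oxidase Loxl2 had 44.9 and 33.6 TPM. Those under the threshold were Tll1, with 0.97 and 1.15 TPM, Adamts14, with 0.48 and 0.44 TPM, Loxl4, with 0.11 and 0.18 TPM, and Tll2, the lowest, with 0.02 TPM in replicate 1 and listed at 0 in replicate 2.

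Of 10 collagen receptors, 6 were detected, a share near the 56.4% of all protein-coding genes. Itgb1, the beta chain shared by the collagen-binding integrins, had 232 and 321 TPM, and the receptor kinase Ddr1 had 44.1 and 65.6 TPM. Itga1, an integrin alpha chain that binds type IV collagen, had 17.2 and 20.3 TPM. The others under the threshold were Gp6, the platelet receptor, with 0.83 and 1.65 TPM, Lair1, with 0.62 and 0.52 TPM, and Itga10, the lowest, with 0.40 and 0.63 TPM. Itga11, which binds type I collagen, had 0.47 and 1.03 TPM and was the only gene of these lists called between the libraries (log2 -1.11, adjusted p 8.39e-06 in the exact binomial test). In all, 38 of the 46 genes on these 3 lists were detected.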

How the data were processed

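Total RNA of E11.5 heart was measured in 2 libraries of 1 group. The authors deposited expected counts and TPM per gene and transcript, and the percent of a gene's TPM in each transcript, per the file headers. The assembly is mm10 and the annotation M4, per the deposited README texts; the sources used here do not name the aligner, the quantifier or the strand setting. Expected counts were rounded for the binomial test. GENCODE M21, whose assembly GRCm38 equals mm10, gave symbols, gene types and coordinates for 42462 of 43346 mouse genes (98.0%). Promoter windows came from RefSeq (GRCm38.p6) and the Col2a1 exon from the GENCODE transcripts.

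Library sizes were scaled by TMM in edgeR 4.0.16 (R 4.3.3), with the size factors of DESeq2 1.42.0 as an alternative; the exact binomial test was run in scipy 1.17.1 after a check on simulated data. Folds have 0.5 added to each count. Rows that are not mouse genes (spike-ins and tRNAs) held 8.43% and 8.61% of the counts and were left out of the tests. The libraries are not copies of each other, with a chi-square of 24.8 per gene. No column of per-sample values was left out. Where a library has 0 counts, up to 3 counts remain possible, equal to 0.0871 CPM in replicate 1 and 0.119 CPM in replicate 2. Of the members, 13 share exon sequence with another gene, and overlapping genes on opposite strands cannot be told apart without the strand setting.

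Values in both libraries are given for the 12 highest members, every member of a chain pair, members with a mean of 0.5 to 2 TPM, members called between the libraries and members whose largest transcript is not coding; in the lists of collagen modification, propeptide removal and cross-linking, and receptors, for the 3 highest, the lowest, those not detected and those called. The members, lists and rules were chosen with earlier results of these data known.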

Additional observations from a re-analysis of the deposited data

How the results depend on the processing

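No paired analysis was possible because there is 1 group. Among 192 recomputations, the log2 ratios of Col5a1 to Col5a2 and of Col4a3 to Col4a4, whose higher gene differed between the libraries, turned to -0.03 and -0.22 without replicate 1; no other chain ratio changed sign. Leaving out 1 library in turn gave 28 to 29 detected collagen genes, medians of 3.29 to 3.72 TPM, shares of protein-coding TPM of 0.116 to 0.145% and fibrillar shares of 59.8 to 60.2%; it leaves no test between libraries and no comparison of leading transcripts, so those were not run. The median of 3.50 TPM became 2.30 with coding transcripts alone and 5.36 with TPM rescaled over nuclear protein-coding genes without globins. It became 2.06 with long coding transcripts, an alternative chosen after seeing the data. The median over all protein-coding genes was not recomputed on these measures, so the medians cannot be compared there. The share of 0.131% became 0.406% in counts, which have no length correction. The fibrillar share of 59.96% became 59.5% with posterior means, 58.7% in counts, 60.7% with coding transcripts and 56.6% with long coding transcripts. Over all 8 classes, 26 of 48 recomputed shares moved by at least the SD between the libraries. The 48 include the shares without 1 library. With 2 libraries these always lie within the SD, so they could not move, and all 26 came from the other measures. The 2 calls between libraries became 6 at a fold of 1.5, and stayed 2 with other scalings and with no filter. Detected members numbered 29 at 0.5 TPM and 25 at 2 TPM. Col15a1, Col11a2 and 13 other members rest on fewer than 100 counts in each library, where a difference of 2-fold may not be detectable.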
